A study of Mus musculus with 12 samples.

Results

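All 6 embryonic libraries of mouse small-intestinal epithelium were compared with all 6 adult ones, which together make up the 12 libraries of the study. The embryonic side held E12.5 and E14.5, the days of gestation, with 3 libraries each of living cells that carried EpCAM, an adhesion protein of epithelia, and lacked the endothelial marker CD31 and the leukocyte marker CD45. The adult side held ISC and AE, again with 3 libraries each, from Lgr5EGFP-Cre-ERT males of 2 months (P60). ISC were crypt cells with high fluorescence of EGFP, which this allele places under the control of Lgr5, a receptor of crypt base stem cells. AE were villus cells sorted with the same antibodies as the embryonic cells and called enterocytes in the labels. All mice were of a mixed C57BL/6 CD1 background. For the embryos neither genotype nor sex is stated in the sources used here. Each library started from 50000 sorted cells, taken from a pool of 20 embryos at E12.5 and from 1 gut in the adult, and the size of the E14.5 pools is not given. In the labels of all 6 embryonic libraries the age field names the other embryonic stage than the title. Titles were followed throughout. If the age field is the right one, every value and direction given for E12.5 belongs to E14.5 and the reverse, while the 2 sides of the comparison stay as they are.

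At the embryonic stages studied the gut endoderm is a dividing layer whose villi are only beginning to form, and most of its digestive and defensive products are not yet made. Adult epithelium is renewed from crypt stem cells and lives beside food, microbes and bile. Since the adult side holds both crypt stem cells and villus cells, the comparison asks which genes set both embryonic groups apart from both.

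A gene was called when its adjusted p was under 0.05 for the mean of E12.5 and E14.5 minus the mean of ISC and AE. It was said to separate the sides when all 4 pairs (E12.5 and E14.5, each against ISC and AE) passed the same threshold in the same direction. Differences are on the log2 scale and positive where the embryonic side was higher, and levels are counts per 1000000 normalised by the trimmed mean of M values (CPM). Where 3 levels of a side are given, they are the lowest, the median and the highest of its 6 libraries. In each gene whose levels are given for both sides in this form, Cdx2 excepted, the ranges of the sides do not overlap, as was true of 6122 of the genes tested (39.9%).

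Total gene counts per library ran from 19655654 to 28115882 at E12.5, 19595603 to 45190749 at E14.5, 15104540 to 22496396 for ISC and 12587626 to 34157368 for AE. The first axis of a principal component analysis of log2 CPM held 74.7% of the variance and ordered the groups E12.5, E14.5, ISC and AE. Epithelial markers were present on both sides. Epcam was measured at 429, 673 and 875 CPM in the embryo and at 998, 1179 and 2051 CPM in the adult. Cdh1, the epithelial cadherin, stood at 692, 901 and 1046 CPM in the embryo and 1467, 1726 and 1829 CPM in the adult, and no library of either side lacked these genes. Markers of other cells differed with age. The summed level of 24 mesenchyme and muscle markers was 1756 to 1978 CPM at E12.5, led by fibronectin (Fn1), 659 to 806 CPM at E14.5, 11.5 to 12.4 CPM for ISC and 17.5 to 20.0 CPM for AE. In ISC 7 of them had no read, among them the muscle filament gene Des and the collagen Col6a1, and in AE 1, Twist2. The 12 enteric neural markers summed to 27.8 to 32.1 CPM in the embryo against 4.39 to 10.7 CPM in the adult. The 22 immune markers summed to 32.5 to 36.7 CPM in the embryo, 36.6 to 42.5 CPM in ISC and 53.0 to 75.4 CPM in AE. In bulk libraries fewer cells of a type and less RNA per cell cannot be told apart, and the part of these cells in the gene differences below was not tested.

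Of 15342 genes tested, 12296 (80.1%) were called in the average of the groups, 6456 (42.1%) higher in the embryo and 5840 (38.1%) higher in the adult. The stricter requirement of all 4 pairs kept 5471 genes (35.7%), 2858 (18.6%) higher in both embryonic groups and 2613 (17.0%) higher in both adult groups. For 3241 genes (21.1%) each of the 4 differences was at least 1 log2 unit, with 1833 (11.9%) higher in the embryo and 1408 (9.18%) in the adult. The embryonic set reached further: the smallest of a gene's 4 differences had a median of 1.68 among the genes separating towards the embryo and 1.10 in size among those separating towards the adult, and it was at least 5 for 458 and 168 genes. Among the genes higher in the embryo, 248 had no count in any adult library, and 30 of those higher in the adult had none in any embryonic library. Depth differed between the sides, and its part in these numbers was not tested. A total of 3 counts over a group equalled 0.0371 CPM at E12.5, 0.0263 at E14.5, 0.0525 for ISC and 0.0606 for AE. The median difference over all genes tested was 0.06, and upper-quartile scaling shifted it to 0.22, with 7264 genes called higher in the embryo and 5160 in the adult, and 3170 and 2289 separating.

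The pairs E12.5 against ISC and E14.5 against AE share no library. In the first, 10513 genes (68.5%) were called, 34.6% of all genes higher in the embryo and 33.9% in the adult, and in the second 12000 (78.2%), 41.5% and 36.7%. In the same direction in both were 7444 genes, or 70.8% of the first list and 62.0% of the second, while 1204 genes (11.5% of the first list) were called in both with opposite signs. The other pairs gave 12593 calls for E12.5 against AE (82.1%, 43.7% higher in the embryo and 38.4% in the adult) and 9319 for E14.5 against ISC (60.7%, 30.6% and 30.2%). Multiply aligned reads were listed for E12.5 and ISC only, so these other pairs each crossed that split, and its part was not tested. Most of the average calls did not separate the sides: 6825 genes (44.5%) were called in the average without doing so, and for 1070 (6.97%) at least 1 of the 4 pairs passed the threshold in the direction opposite to the average. Lgr5 was such a gene, with an average difference of -1.27 ± 0.10 (adjusted p = 3.42e-08) and levels of 24.8 ± 5.30 CPM at E12.5, 81.8 ± 3.69 CPM at E14.5, 508 ± 39.6 CPM for ISC and 23.3 ± 3.20 CPM for AE (mean ± SD, n = 3). Its level in E14.5 lay above that in AE, so its groups did not order by age.

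**Figure D1:**
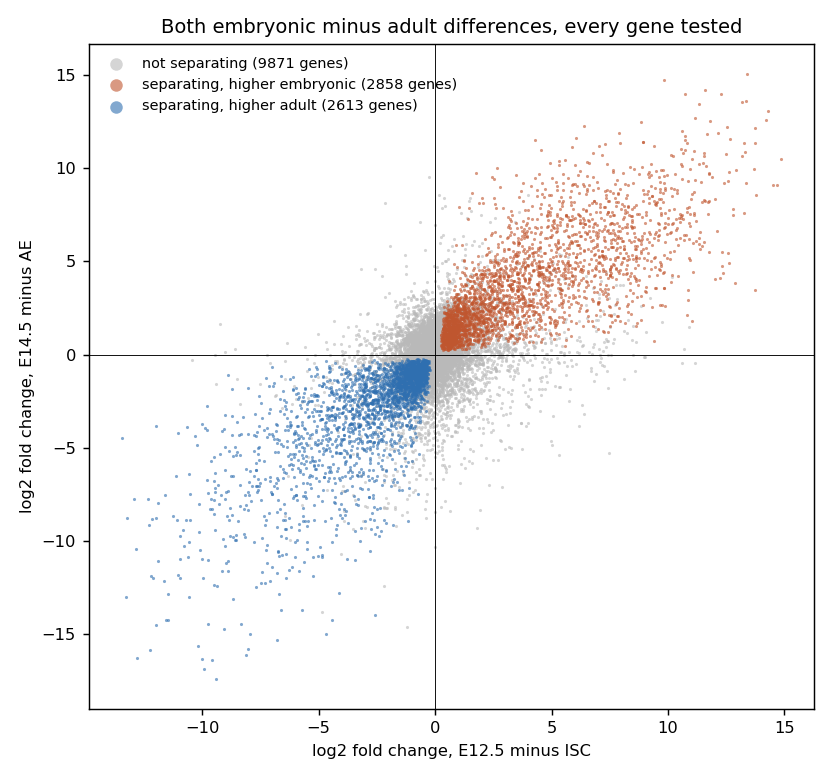
Each point is 1 of the 15342 genes tested, placed by its log2 fold change between E12.5 and ISC (horizontal) and between E14.5 and AE (vertical). The 2858 genes separating towards the embryo fill the upper right and the 2613 separating towards the adult the lower left, and genes that separate in neither direction lie around the origin, along both axes and, where the 2 differences have opposite signs, in the other corners.

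The genes with the largest smallest difference and at least 20 CPM in every embryonic library began with H19, a noncoding RNA that is expressed from the maternal chromosome beside the growth factor gene Igf2. H19 was measured at 4456, 2726 and 4283 CPM in the E12.5 libraries and 6392, 6127 and 6834 CPM in the E14.5 libraries, against 0.0701, 0.267 and 0.490 CPM in the adult ones (difference 14.22 ± 0.28, adjusted p = 2.01e-14). The lower embryonic group mean exceeded the higher adult one 11317-fold.

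Prrg3, which encodes a membrane protein with a vitamin K-dependent domain, stood at 38.3, 71.0 and 106 CPM in the embryo and had no read in any adult library. Its lower embryonic group exceeded the adult floor of 3 counts over a group at least 718-fold. Slitrk4 and Gjc1 showed the same pattern of zero adult counts. Slitrk4, a leucine-rich membrane protein known from neurons, was measured at 29.1, 61.4 and 98.5 CPM in the embryo, at least 497-fold above the floor. Gjc1, the gap junction protein connexin 45, had 21.8, 43.7 and 74.5 CPM and exceeded it at least 370.5-fold. These 3 genes were undetected in the adult at these depths, where 3 counts over a group correspond to 0.0525 CPM in ISC and 0.0606 CPM in AE.

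Igf2bp1, an RNA-binding protein of fetal tissues, followed with 299.9, 488 and 736 CPM in the embryo and 4 reads in all ISC and 1 in all AE libraries. Lama1, the laminin chain of early basement membranes, had 74.4, 141 and 207 CPM in the embryo and 2 adult reads in total. Gpc6, a heparan sulphate proteoglycan of the cell surface, had 91.1, 174 and 280.3 CPM against 3 reads in ISC and 1 in AE. Ltbp1, which binds latent TGF-beta in the matrix, had 59.4, 236 and 429 CPM against 2 reads in ISC and none in AE. All of these were higher in E12.5 than in E14.5, whereas H19 was higher in E14.5. Trim71, an RNA-binding ubiquitin ligase of early embryos and a textbook target of the let-7 microRNAs, had 92.6, 132 and 194 CPM in the embryo and 3 reads in all adult libraries.

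The promoters of Prrg3 and Trim71 are printed to show the sequence from which leading embryonic genes start. They come from RefSeq on build GRCm38.p6 and run from 250 bases before to 50 bases after the start of the transcript. Capitals mark matches on either strand to the TATA box (TATAAA), the CCAAT box, a core of HNF4 sites (CAAAGTC), a core of CDX sites (TTTATTG) or the E-box CACGTG. The Prrg3 window lies at chrX:71962375-71962674 (plus strand, the first of 2 listed) and the Trim71 window at chr9:114564320-114564619 (minus strand).
Prrg3: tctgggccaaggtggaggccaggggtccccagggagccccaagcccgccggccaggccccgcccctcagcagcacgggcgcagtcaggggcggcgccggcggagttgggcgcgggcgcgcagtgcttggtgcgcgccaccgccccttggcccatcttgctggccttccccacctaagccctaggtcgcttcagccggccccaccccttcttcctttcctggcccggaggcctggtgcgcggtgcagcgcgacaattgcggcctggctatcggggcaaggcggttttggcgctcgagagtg
Trim71: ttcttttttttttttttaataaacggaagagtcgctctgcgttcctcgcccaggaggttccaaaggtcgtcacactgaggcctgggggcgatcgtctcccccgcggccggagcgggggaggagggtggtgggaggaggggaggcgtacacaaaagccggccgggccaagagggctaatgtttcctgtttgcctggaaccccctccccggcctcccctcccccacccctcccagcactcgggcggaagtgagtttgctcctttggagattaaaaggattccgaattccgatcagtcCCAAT
The Prrg3 window held 28 CG dinucleotides in 73.0% G and C and none of the motifs, and the Trim71 window held 19 in 59.3% G and C and 1 CCAAT, 45 bases after the start. Their ratios of observed to expected CG dinucleotides were 0.701 and 0.720, against a median of 0.744 over all genes tested with 1 window.

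The leading genes on the adult side included alpha-defensins, antimicrobial peptides of the Paneth cells at the crypt base. Gm14851 (Defa38 in RefSeq), one of them, had 145.4, 381 and 493 CPM in the adult and 3 embryonic reads, all in E12.5. Gm15284 (Defa30) had 59.6, 264 and 374 CPM in the adult and likewise 3 embryonic reads. These values are uncertain between family members, because 55.6% and 52.4% of the 50-base stretches of these genes, and 33.5% of those of AY761184, occur in transcripts of other genes. AY761184 stood at 0, 0.0990 and 0.160 CPM in the embryo and 182, 392 and 599.9 CPM in the adult. Itln1, intelectin, a lectin that binds microbial sugars, had 103, 230.02 and 394 CPM in the adult and 6 embryonic reads.

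Mptx2, a mucosal pentraxin, had 41.5, 63.8 and 215 CPM in the adult and 4 embryonic reads, and AI427809 had 20.6, 34.3 and 71.5 CPM and 1 embryonic read. Reg3g, an antibacterial lectin, rose from 0, 0.0285 and 0.0439 CPM in the embryo to 48.7 ± 29.4 CPM in ISC and 764 ± 474 CPM in AE (mean ± SD, n = 3). Pigr, the receptor that carries IgA across the epithelium, was measured at 0.622, 2.70 and 4.33 CPM in the embryo and 3202, 6426 and 9406 CPM in the adult (difference -11.49 ± 0.24, adjusted p = 3.61e-14). Its lower adult group exceeded the higher embryonic group 1011-fold. Slco2b1, an organic anion transporter, stood at 0, 0.0542 and 0.0888 CPM in the embryo and 52.3, 71.9 and 159 CPM in the adult. Paneth products were abundant in the ISC libraries as well as in the villus libraries, with Lyz1, lysozyme, averaging 2848 CPM in ISC and 3772 CPM in AE. The 12 Paneth genes summed to 0.489 to 1.87 CPM at E12.5, 9.84 to 10.8 CPM at E14.5, 2391 to 4243 CPM for ISC and 3020 to 7112 CPM for AE. Goblet genes summed to 19602 to 33070 CPM in AE, so the libraries labelled enterocyte also held RNA of secretory cells, and the part of Paneth and goblet cells in the adult levels was not tested.

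The promoters of Gm14851 at chr8:21096001-21096300 (minus strand) and Gm15284 at chr8:21134400-21134699 (plus strand) are given for contrast with the embryonic pair, with the same capitals.
Gm14851: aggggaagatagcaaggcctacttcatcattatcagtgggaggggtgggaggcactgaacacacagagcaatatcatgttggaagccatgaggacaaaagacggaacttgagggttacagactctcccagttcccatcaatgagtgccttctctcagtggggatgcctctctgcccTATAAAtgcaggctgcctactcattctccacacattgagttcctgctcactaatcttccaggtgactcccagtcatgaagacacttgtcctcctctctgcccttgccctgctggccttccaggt
Gm15284: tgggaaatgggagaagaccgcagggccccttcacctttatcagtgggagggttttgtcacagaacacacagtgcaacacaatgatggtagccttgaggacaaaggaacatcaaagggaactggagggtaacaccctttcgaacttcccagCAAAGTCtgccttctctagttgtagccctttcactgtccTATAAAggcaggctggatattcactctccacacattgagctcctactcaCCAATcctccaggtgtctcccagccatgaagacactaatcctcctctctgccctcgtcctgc
They held 1 and 3 CG dinucleotides in 300 bases, and both carried a TATAAA, which began 74 bases before the start in Gm14851 and 61 bases before it in Gm15284. Gm15284 also held a CAAAGTC 100 bases before the start and a CCAAT 12 bases before it.

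**Figure D2:**
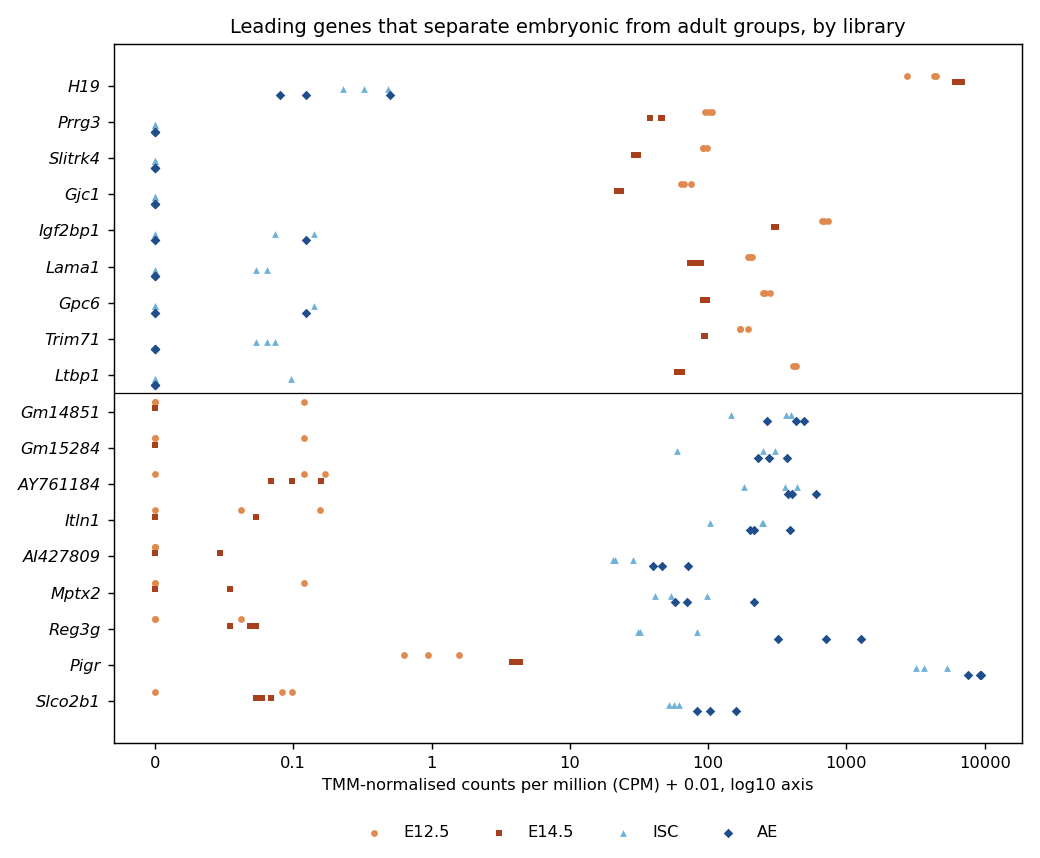
Levels in each of the 12 libraries for leading genes of each direction, as TMM-normalised CPM plus 0.01 on a log10 axis, with 1 symbol per library and 1 colour per group. In every row drawn the 6 libraries of the higher side lie apart from the 6 of the lower side, and Prrg3, Slitrk4 and Gjc1 sit at 0 in every adult library.

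Among genes known as oncofetal, which are made in embryos and again in tumours, 19 of 20 tested members were called higher in the embryo (42.1% of all genes tested) and 13 separated that way (18.6% of all), with a median difference of 5.45 against 0.06 over all genes. None separated towards the adult. The counts of the lists that follow stand against the same shares over all genes tested, for the adult 38.1% called and 17.0% separating. Lin28b, which blocks the maturation of let-7, separated (adjusted p = 7.2e-12 for the average), and its reads numbered 2682 at E12.5, 1478 at E14.5, 12 for ISC and 0 for AE. Lin28a was called too (adjusted p = 0.000624) but did not separate, since its 202 reads in E12.5 fell to 6 in E14.5. Gpc3, an X-linked glypican, stood at 133, 143 and 174 CPM in the embryo and 0, 0.0435 and 0.253 CPM in the adult. Hmga2, an architectural chromatin protein of growing tissues, was graded, with 1329.7 ± 109 CPM at E12.5, 601 ± 15.5 at E14.5, 71.0 ± 0.997 for ISC and 8.02 ± 3.30 for AE. Of the 3 Igf2bp genes all separated, but Igf2bp2 kept 86.3, 107 and 111 CPM in the adult and differed by only 1.92 ± 0.07. Nr6a1, an orphan nuclear receptor, was the only tested member called higher in the adult (-0.30 ± 0.09, adjusted p = 0.00844).

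Several of these genes are textbook targets of let-7, whose mature forms are shown because of the seed they share. The microRNAs themselves were not measured here. Bases 2 to 8, the seed, are in capitals (RefSeq, GRCm38.p6), and 10 mature forms from 12 loci carry GAGGUAG.
let-7a-5p: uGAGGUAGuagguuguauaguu
let-7e-5p: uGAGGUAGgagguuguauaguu
let-7g-5p: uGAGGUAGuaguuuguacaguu
miR-98-5p: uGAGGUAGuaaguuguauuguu
The 3′ UTRs of Trim71, Igf2bp1, Lin28b and Hmga2 each held 4 matches to the complementary heptamer CTACCTC, of which the match nearest the stop codon is printed with its flanks (GENCODE M21 transcripts, sense strand, match in capitals).
Trim71: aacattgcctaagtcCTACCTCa
Igf2bp1: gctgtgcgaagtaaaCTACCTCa
Lin28b: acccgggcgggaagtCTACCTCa
Hmga2: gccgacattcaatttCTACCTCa
In all, 11 of the 20 tested members (55.0%) held a match, against 10.4% of all tested genes with a 3′ UTR. The most matches, 8, were in Nr6a1, the only tested member called higher in the adult. The list was written with let-7 targets in mind, and the motif was looked for after the levels were known, so this is a description. Over the whole comparison 12.1% of the 3′ UTRs of genes separating towards the embryo by at least 1 log2 unit and 11.2% of those towards the adult held the heptamer, with median UTR lengths of 1459 and 850 bases. Per 1000 bases of UTR there were 0.0755 matches in the embryonic set, 0.0901 in the adult set and 0.0732 over all genes tested.

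Imprinted genes, which are expressed from a single parental copy and many of which regulate fetal growth, were higher in the embryo in all 26 tested of 27 listed. Of these 25 separated, where 42.1% of all genes tested were called higher in the embryo and 18.6% separated that way, and the median difference was 8.27, or 6.65 with groups at 0 counts set to the floor. Igf2, the fetal growth factor, was measured at 3624, 4181 and 5059 CPM in the embryo and 3.87, 4.66 and 10.6 CPM in the adult, though 62.1% of its 50-base stretches occur in transcripts of other genes. Grb10, an adaptor that restrains insulin and IGF signalling, stood at 746, 1186 and 1919 CPM in the embryo and 0, 0.383 and 0.981 CPM in the adult (difference 11.18 ± 0.27, adjusted p = 9.34e-14). Rian, a noncoding RNA of the Dlk1 and Meg3 domain, changed little within the embryo, from 242 ± 13.97 CPM in E12.5 to 199.6 ± 2.86 CPM in E14.5, and stood at 0, 0.376 and 0.599 CPM in the adult. Meg3 of the same domain had 178, 234 and 327 CPM in the embryo and 1 read in ISC and 9 in AE. Both maternally and paternally expressed genes were in the set: H19, Meg3, Grb10 and Cdkn1c among the first, Igf2, Dlk1, Peg3 and Peg10 among the second. The smallest differences were those of Impact (0.89 ± 0.10), Phlda2 (1.08 ± 0.30, not separating) and Gnas (1.13 ± 0.09).

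Hedgehog signalling, by which the early endoderm instructs the mesenchyme around it, was higher in the embryo for all 10 tested members, of which 6 separated (42.1% and 18.6% of all genes tested). The ligand Shh was measured at 182, 378 and 581 CPM in the embryo and 0.228, 0.476 and 0.817 CPM in the adult (difference 9.37 ± 0.17, adjusted p = 1.07e-14), with 23.6% of its stretches shared. Ihh, the ligand of the later gut, was called (1.43 ± 0.10) but did not separate, because its 28.1 ± 2.24 CPM in AE came close to the 29.9 ± 0.568 CPM of E14.5. Among the transducers, the receptor partner Smo stood at 102, 137 and 193 CPM in the embryo and 9.48, 35.1 and 77.1 CPM in the adult. The factor Gli3 had 24.4, 46.8 and 73.0 CPM in the embryo and 3 adult reads. Gli genes are known as mesenchymal responders, and the mesenchymal markers given above were higher in the same libraries.

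Hox genes, which carry position along the body axis, were mostly low or absent. Of 39 listed 17 could be tested, and of these 9 separated towards the embryo and 1, Hoxb9, towards the adult (-3.63 ± 0.40, adjusted p = 9.95e-07). Hoxa2 to Hoxa5, Hoxc4, Hoxc8, Hoxd3 and Hoxd4 were among the 9. Hoxa3, the one of them with more than 3 reads in every group, had 686 reads at E12.5, 393 at E14.5, 81 for ISC and 18 for AE (difference 2.97 ± 0.28). Hoxc4 and Hoxc8 had no read in either adult group and could be tested only through the embryonic libraries. In the Hoxb cluster Hoxb2, Hoxb3 and Hoxb4 were called higher in the embryo, Hoxb5, Hoxb6 and Hoxb7 were not called (adjusted p = 0.0774, 0.541 and 0.574), and Hoxb8 and Hoxb9 were called higher in the adult. The levels were low, with all 39 Hox genes together at 61.6 to 66.6 CPM at E12.5, 31.5 to 37.5 CPM at E14.5, 31.1 to 47.9 CPM for ISC and 3.997 to 9.15 CPM for AE. The highest single Hox gene was Hoxb3 in both embryonic groups, Hoxb6 in ISC and Hoxb9 in AE.

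Of 22 tested cadherins 13 separated towards the embryo and 3 towards the adult, and of 32 tested guidance molecules 14 and 6, where 18.6% and 17.0% of all genes tested did so. The protocadherin Pcdh11x had 12.8, 34.7 and 79.4 CPM in the embryo and no adult read, at least 214-fold above the floor. P-cadherin (Cdh3) stood at 27.5, 55.9 and 92.8 CPM in the embryo and 0, 0.0634 and 0.261 CPM in the adult. Against most of the cadherins, Cdh1 (difference -0.96 ± 0.08, adjusted p = 5.88e-08), Cdh17 and Pcdh19 separated towards the adult. Of the guidance receptors, Robo2 had 31.4, 82.1 and 134 CPM in the embryo and 0, 0.0175 and 0.114 CPM in the adult. Robo1 had 16.3, 43.6 and 78.9 CPM in the embryo and 0, 0.0610 and 0.190 CPM in the adult. The ligand Efna5 changed little within either side, at 27.2, 30.9 and 37.2 CPM in the embryo with 1 read in ISC and 1 in AE. Plxna2, a semaphorin receptor, went the other way, at 24.1, 35.0 and 44.5 CPM in the embryo and 109, 122 and 171 CPM in the adult.

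Of 24 tested Wnt pathway genes, 8 were called higher in the embryo and 12 in the adult, and 5 and 3 separated, with a median of -0.13. Over all genes tested 42.1% and 38.1% were called and 18.6% and 17.0% separated, so these counts lie near the shares of all genes. The receptors Fzd3 (5.32 ± 0.13), Fzd2 (2.58 ± 0.12) and Fzd10, the R-spondin receptor Lgr4 and the repressor Tcf7l1 separated towards the embryo, the last at 19.9, 44.7 and 76.7 CPM against 0.218, 0.458 and 0.799 CPM. The Wnt targets Axin2, Sp5 and Cd44 separated towards the adult. Axin2 stood at 26.3 ± 2.76 CPM at E12.5, 57.7 ± 1.86 at E14.5, 627 ± 77.2 for ISC and 109 ± 14.7 for AE, and every adult library exceeded every embryonic one. Of 22 stem cell markers of the crypt, 10 separated towards the adult and none towards the embryo (1 under other scalings, with DESeq2 or limma-voom, and without any of the AE replicates). Olfm4, a secreted glycoprotein of crypt base cells, was measured at 0.666, 2.24 and 2.97 CPM in the embryo, 5743 ± 229.9 CPM in ISC and 606 ± 58.7 CPM in AE. The AE libraries thus held 254-fold more than the higher embryonic group. They also held the Paneth products given above, and the part of crypt cells in their Olfm4 was not tested. The transmembrane protein Ifitm3 stood at 2.26, 3.05 and 4.14 CPM in the embryo and 44.1, 124.9 and 259 CPM in the adult and the water channel Aqp4 at 0.385, 2.35 and 4.13 CPM in the embryo and 31.1, 169.7 and 331 CPM in the adult. Tnfrsf19 (0.43), Soat1 (0.66), Msi1 (0.90) and Igfbp4 were called higher in the embryo without separating.

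Genes of the fetal spheroid state and of YAP signalling, which reappear in regenerating gut, gave a mixed picture, with 7 of 17 tested separating towards the embryo and 2 towards the adult. The summed level of the list was highest in ISC, at 600.2 to 1078.2 CPM. It was 238.8 to 370.7 CPM in the embryo and 181.0 to 205.1 CPM in AE. Cyr61 led the sum in ISC, with a mean of 722.2 CPM there, 136.7 CPM at E12.5 and 74.9 CPM at E14.5. It was called higher in the adult (-0.56 ± 0.22, adjusted p = 0.0264) without separating. The connexin Gja1 stood at 20.2, 32.5 and 47.8 CPM in the embryo and 0, 0.0217 and 0.175 CPM in the adult. Clusterin (Clu), a secreted chaperone, was measured at 12.95, 29.9 and 33.0 CPM in the embryo and 0.385, 3.15 and 12.8 CPM in the adult (difference 3.51 ± 0.27, adjusted p = 2.43e-08), and its ISC libraries approached the embryonic range. The growth factor Areg, by contrast, rose from 0.0321, 2.92 and 6.71 CPM in the embryo to 16.5, 49.5 and 67.6 CPM in the adult.

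Of 18 tested genes of retinoid biology, 8 separated towards the embryo and 3 towards the adult. Rbp2, the retinol carrier of the intestine, stood at 1.87, 3.23 and 3.53 CPM in the embryo and 14.05, 736 and 2567 CPM in the adult. Lrat, which stores retinol as ester, rose with Rbp2, from 0.624, 2.73 and 4.82 CPM in the embryo to 64.2, 67.3 and 93.9 CPM in the adult. The receptors Rarb (3.21 ± 0.15) and Rarg (3.13 ± 0.19) were higher in the embryo, and Rara did not pass the threshold (-0.02 ± 0.08, adjusted p = 0.809).

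Chromatin regulators were counted next. Of 30 Polycomb genes, 9 separated towards the embryo and 3 towards the adult (1 without E12.5 replicate 2), with a median of 0.50, against 18.6% and 17.0% of all genes tested. The largest smallest difference was that of Mtf2, which recruits Polycomb repressive complex 2, at 198, 225 and 241 CPM in the embryo and 51.3, 85.7 and 95.5 CPM in the adult (difference 1.48 ± 0.11, adjusted p = 2.2e-08). Cbx2, a reader of the Polycomb mark, stood at 64.9, 109.9 and 163 CPM in the embryo and 9.72, 22.5 and 32.7 CPM in the adult. Ezh1, the methyltransferase of non-dividing cells, was higher in the adult, at 32.4, 34.9 and 37.6 CPM in the embryo and 79.0, 87.8 and 92.8 CPM in the adult, and its level hardly varied within either side. Of 16 genes of DNA methylation 6 separated towards the embryo and 2 towards the adult. Both de novo methyltransferases separated towards the embryo. Dnmt3a had 679.5, 828 and 1030.0 CPM in the embryo and 132, 144.8 and 157 CPM in the adult (difference 2.51 ± 0.07), and Dnmt3b had 37.9, 39.5 and 42.5 CPM in the embryo and 3.68, 12.7 and 19.8 CPM in the adult (difference 1.97 ± 0.16). The maintenance factor Uhrf1 and the demethylase Tet1 did so too. Tet1 stood at 251 ± 6.46 CPM at E12.5, 81.4 ± 3.74 at E14.5, 46.5 ± 5.43 for ISC and 5.93 ± 0.209 for AE. Of 24 chromatin remodeler genes, 6 separated towards the embryo, 3 when any of the E14.5 libraries or ISC replicate 1 or 2 was left out, and 2 towards the adult, none of them under upper-quartile scaling.

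Most genes of cell division and all of ribosome production were called higher in the embryo in the average, where 42.1% of all genes tested were, while the numbers that separated lay near the 18.6% of all genes and varied with the settings. Of 39 replication and mitosis genes 35 were called higher in the embryo and 9 separated, or 14 with DESeq2 or its size factors and 16 without AE replicate 1. Their median difference was 0.30 for E12.5 and 0.23 for E14.5 against ISC, but 1.94 and 1.88 against AE. Rrm2, a subunit of the enzyme that makes deoxynucleotides, did separate, at 163, 198 and 235 CPM in the embryo and 26.5, 53.0 and 66.1 CPM in the adult. Mki67, a marker of cycling cells, was not called (0.22 ± 0.13, adjusted p = 0.133), with 2118 ± 262 CPM in ISC above and 471 ± 153 CPM in AE below the embryonic groups. Upper-quartile scaling (0.37, adjusted p = 0.0178) and leaving out AE replicate 1 (0.36, adjusted p = 0.00102) called it higher in the embryo, with adjusted p up to 0.266 in the other settings. The transcription factor E2f2 was the exception that separated towards the adult, at 14.1, 21.4 and 27.6 CPM in the embryo and 41.5, 51.0 and 129 CPM in the adult. All 28 ribosome biogenesis genes were called higher in the embryo, while 4 separated, a count that ranged from 1 without ISC replicate 2, through 2 without E12.5 replicate 1 or 3 or ISC replicate 1, to 8 with DESeq2 size factors, 10 with DESeq2 and 12 without AE replicate 1. Nucleophosmin (Npm1) was the leading one, at 1211 ± 83.1 CPM at E12.5, 1042 ± 46.3 at E14.5, 675 ± 51.1 for ISC and 165 ± 44.6 for AE, with 24.3% of its stretches shared.

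Digestion and absorption were the adult counterpart, and here the ISC libraries, too, lay above the embryo for many genes. The part of differentiated cells in the ISC levels was not tested. Of 22 brush border enzymes 13 separated towards the adult and none towards the embryo, with a median of -5.39. Sucrase-isomaltase (Sis) was measured at 0.0367, 0.312 and 0.748 CPM in the embryo, 268 ± 126 CPM in ISC and 14543 ± 3081 CPM in AE (difference -13.23 ± 0.35, adjusted p = 2.59e-13). The peptidases Mme, at 1.35, 3.32 and 6.42 CPM in the embryo and 153, 694 and 3605 CPM in the adult, and Mep1b, at 0.257, 0.815 and 2.46 CPM in the embryo and 21.4, 398 and 1361 CPM in the adult, followed. The peptidases Anpep and Dpp4 were called (-2.44 and -1.17) but did not separate, and Cubn, a vitamin receptor, was not called (0.14 ± 0.39, adjusted p = 0.749).

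Of 32 nutrient transporters 31 were called higher in the adult and 19 separated. The glutamate transporter Slc1a1 stood at 0.0888, 0.168 and 0.483 CPM in the embryo and 56.6, 85.2 and 163 CPM in the adult, with 31.0% of its stretches shared, and the chloride exchanger Slc26a3 at 0, 1.203 and 2.99 CPM in the embryo and 27.2, 169.7 and 322 CPM in the adult. The glucose transporter Slc5a1 had 8.44, 26.9 and 45.2 CPM in the embryo, 253 ± 43.3 CPM in ISC and 4288 ± 1899 CPM in AE. In lipid handling 12 of 25 genes separated towards the adult. The summed level of this list, led by Apob, overlapped between ISC (2019 to 2703 CPM) and E12.5 (2290 to 2537 CPM). The sterol exporters Abcg8 and Abcg5 moved together, at 0.132, 0.457 and 0.674 CPM in the embryo and 55.7, 164 and 597 CPM in the adult for the first and 0.374, 0.415 and 0.933 CPM in the embryo and 47.7, 141 and 403 CPM in the adult for the second. Npc1l1, the importer of cholesterol, rose from 6.39, 8.24 and 9.66 CPM in the embryo to 77.8, 903 and 3995 CPM in the adult. Scarb1, a lipoprotein receptor, was the single member separating towards the embryo, at 24.03, 28.7 and 30.8 CPM in the embryo against 2.13, 5.99 and 21.8 CPM in the adult.

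Among 25 microvillus genes 12 separated towards the adult, including Cobl (4.26, 6.20 and 11.3 CPM in the embryo and 115, 290.4 and 831 CPM in the adult) and Baiap2l2 (2.24, 4.67 and 8.87 CPM in the embryo and 135, 155 and 172 CPM in the adult), both of which shape actin. Fscn1, the actin bundler of motile cells and filopodia, was the only one to separate towards the embryo, at 81.5, 122 and 217 CPM with 6 reads in ISC and none in AE. All 42 genes of xenobiotic metabolism were called higher in the adult and 26 separated. Cyp3a25 had 1 embryonic read and 11.96 ± 2.97 CPM in ISC and 854 ± 482 CPM in AE, with 26.8% of its stretches shared. The epoxide hydrolase Ephx1 had 0.133, 0.276 and 0.396 CPM in the embryo and 18.6, 27.3 and 49.6 CPM in the adult, with ISC and AE close to each other.

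Genes of defence and immune recognition were higher in the adult. Of 28 epithelial defence genes 24 separated towards the adult, with a median of -7.84 (-7.47 with groups at 0 counts set to the floor). The phospholipase Pla2g2a, for example, had no embryonic read and 5.12, 5.68 and 9.39 CPM in the adult, at least 148-fold above the floor. The surface mucin Muc1 (5.21, 5.91 and 6.71 CPM in the embryo against 0.105, 0.218 and 0.826 CPM in the adult) and the fucosyltransferase Fut2 (10.0, 17.6 and 28.2 CPM in the embryo against 0.634, 1.82 and 3.84 CPM in the adult) were the 2 that separated towards the embryo. The goblet and Paneth lists gave 11 of 13 and 11 of 11 separating towards the adult. The Paneth genes were nearly absent in the embryo, as their sums given above show. Members could pass the count filter through the adult libraries alone, so the Paneth count was largely fixed by the filter. The goblet mucin Muc2 was measured at 1.16, 2.16 and 3.82 CPM in the embryo, 649 ± 99.8 CPM in ISC and 7967 ± 1579 CPM in AE. Of 8 tuft cell genes 4 separated, among them the channel Trpm5 (0.266, 0.772 and 1.495 CPM in the embryo and 5.89, 11.4 and 14.4 CPM in the adult), and of 23 enteroendocrine genes 6 did, or 3 with limma-voom.

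For antigen presentation, 21 of 24 genes separated towards the adult and none towards the embryo (1 without ISC replicate 2). Cd74, the invariant chain of class II molecules, stood at 0.371, 0.522 and 1.21 CPM in the embryo, 631 ± 96.1 CPM in ISC and 2221 ± 910.4 CPM in AE (difference -10.92 ± 0.29, adjusted p = 2.88e-13). H2-Aa, a class II chain, stood at 0, 0.0594 and 0.128 CPM in the embryo and 59.8, 277 and 1376 CPM in the adult. Class I genes followed with smaller differences, H2-K1 at -3.58, H2-D1 at -3.55 and B2m at -4.76. Class II genes are also products of white blood cells, whose part in these values was not tested. The summed markers of these cells, given above, were highest in AE, where Itgam led them. Itgam averaged 34.5 CPM in AE, where the sum had a median of 69.4 CPM. Since 66.3% of the stretches of Itgam are shared with transcripts of other genes, this sum is uncertain. Of 34 interferon-responsive genes 25 separated towards the adult, such as Igtp (0.566, 1.15 and 1.89 CPM in the embryo and 9.31, 31.6 and 160.5 CPM in the adult) and Oasl2 (1.32, 5.97 and 8.87 CPM in the embryo and 31.1, 76.8 and 283 CPM in the adult). Ifit2 went the other way and was the single member separating towards the embryo, at 28.8, 57.8 and 100.04 CPM in the embryo against 3.92, 5.15 and 6.15 CPM in the adult.

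Nearly all genes of mitochondrial energy production were called higher in the adult, where 38.1% of all genes tested were called and 17.0% separated. All 36 oxidative phosphorylation genes were called higher in the adult with a median of -1.32, and 9 separated, 16 without ISC replicate 3. Against AE the medians were -2.36 (E12.5) and -1.52 (E14.5), and against ISC -1.16 and -0.18. Of 28 fatty acid oxidation genes 27 were called higher in the adult and 14 separated. Pdk4, a kinase that spares glucose, rose from 0.0642, 0.281 and 0.659 CPM in the embryo to 30.1, 72.0 and 99.6 CPM in the adult. Ppargc1a, a coactivator of mitochondrial genes, stood at 8.14, 9.92 and 12.02 CPM in the embryo, 77.1 ± 3.89 CPM in ISC and 387 ± 126 CPM in AE. Of 27 glycolysis genes 17 were called higher in the embryo and 5 in the adult, and 7 and 2 separated. Their median difference was 1.24 (E12.5) and 2.09 (E14.5) against ISC but -0.62 and 0.13 against AE, and their summed level was 3842 to 6432 CPM in the embryo, 2054 to 2270.3 CPM in ISC and 12019 to 15048 CPM in AE. The high-affinity glucose transporter Slc2a3 had 12.3, 119 and 261 CPM in the embryo and 1 read in each adult group. Lactate dehydrogenase B (Ldhb) stood at 10.9, 28.0 and 50.2 CPM in the embryo and 0.210, 1.00 and 2.34 CPM in the adult, with 21.0% of its stretches shared, while Ldha did not separate, at 1298 ± 161 CPM at E12.5, 2142 ± 151 at E14.5, 503 ± 30.5 for ISC and 2928 ± 234 for AE.

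Transcription factors of the intestine differed less than the enzymes and transporters above, with a median of -0.96. Cdx2, a homeobox factor that specifies the intestine, was not called (0.05 ± 0.10, adjusted p = 0.662), with 54.9, 60.6 and 80.3 CPM in the embryo and 50.4, 60.6 and 75.1 CPM in the adult. Its relative Cdx1 separated towards the adult (-4.22 ± 0.12, adjusted p = 3.69e-13). Hnf4a, a nuclear receptor of enterocytes, did so with 265, 662 and 1042 CPM in the embryo and 1546, 1949 and 2378 CPM in the adult and a graded rise. In all, 14 of 37 separated towards the adult and 3 towards the embryo. The vitamin D receptor Vdr led with 1.12, 2.53 and 4.79 CPM in the embryo and 876, 1305 and 1486 CPM in the adult (difference -9.08 ± 0.15, adjusted p = 5.84e-15), similar in ISC and AE. The liver and gut factor Creb3l3 and the nuclear receptor Ppard followed, the second at 8.84, 16.1 and 21.8 CPM in the embryo and 100.2, 198 and 281 CPM in the adult. Prdm1 (Blimp1), known to hold back the adult program of the fetal mouse gut, was higher in the embryo, at 524, 563 and 612 CPM in the embryo against 1.61, 9.22 and 40.9 CPM in the adult (difference 6.19 ± 0.22). The pioneer factor Foxa1 (2.51 ± 0.09) and Grhl3 (4.48 ± 0.35) also separated towards the embryo.

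Of 19 circadian clock genes 7 separated towards the adult, led by Npas2 (0.222, 0.534 and 0.835 CPM in the embryo and 58.2, 66.0 and 131 CPM in the adult), Nr1d1 (22.3, 24.8 and 28.4 CPM in the embryo and 252, 297 and 505 CPM in the adult) and Arntl (5.49, 6.12 and 6.93 CPM in the embryo and 25.2, 43.3 and 58.6 CPM in the adult). Bhlhe41 separated the other way, and 2 genes of the list did so with DESeq2, with upper-quartile factors or without AE replicate 3. The time of day of collection is not stated in the sources used here. Immediate-early genes, which respond to cell isolation within minutes, were higher in the adult for 19 of 21, and 14 separated. Fos stood at 35.2, 59.0 and 65.1 CPM in the embryo, 1093 ± 250.1 CPM in ISC and 624 ± 222 CPM in AE, and Fosb at 21.8, 36.4 and 50.0 CPM in the embryo and 173, 674 and 1182 CPM in the adult. Adult tissue was taken apart with EDTA and shaking, and its crypts also with collagenase and DNase, while embryonic tissue was digested with collagenase alone, so handling and age cannot be told apart in these genes. Sex was confounded with age in the same way, since the adults were males and the embryos pools of unstated sex. Xist, the noncoding RNA of the inactive X, stood at 776, 1263 and 1819 CPM in the embryo and 0.245, 4.55 and 9.70 CPM in the adult, and the Y-linked Eif2s3y at 30.6, 32.4 and 33.6 CPM in the embryo and 64.2, 79.7 and 88.2 CPM in the adult. Of 21 tested mesenchyme and muscle markers 18 separated towards the embryo. They were nearly absent in the adult and could pass the count filter through the embryonic libraries alone, which largely fixed this count. Fn1 stood at 254, 893 and 1668 CPM in the embryo and 0.0817, 0.490 and 0.914 CPM in the adult. Col3a1 had 10.5, 33.1 and 75.7 CPM in the embryo with 1 read in each adult group. Sparc had 51.8, 73.0 and 95.6 CPM in the embryo and 0, 0.0817 and 0.253 CPM in the adult.

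**Figure D3:**
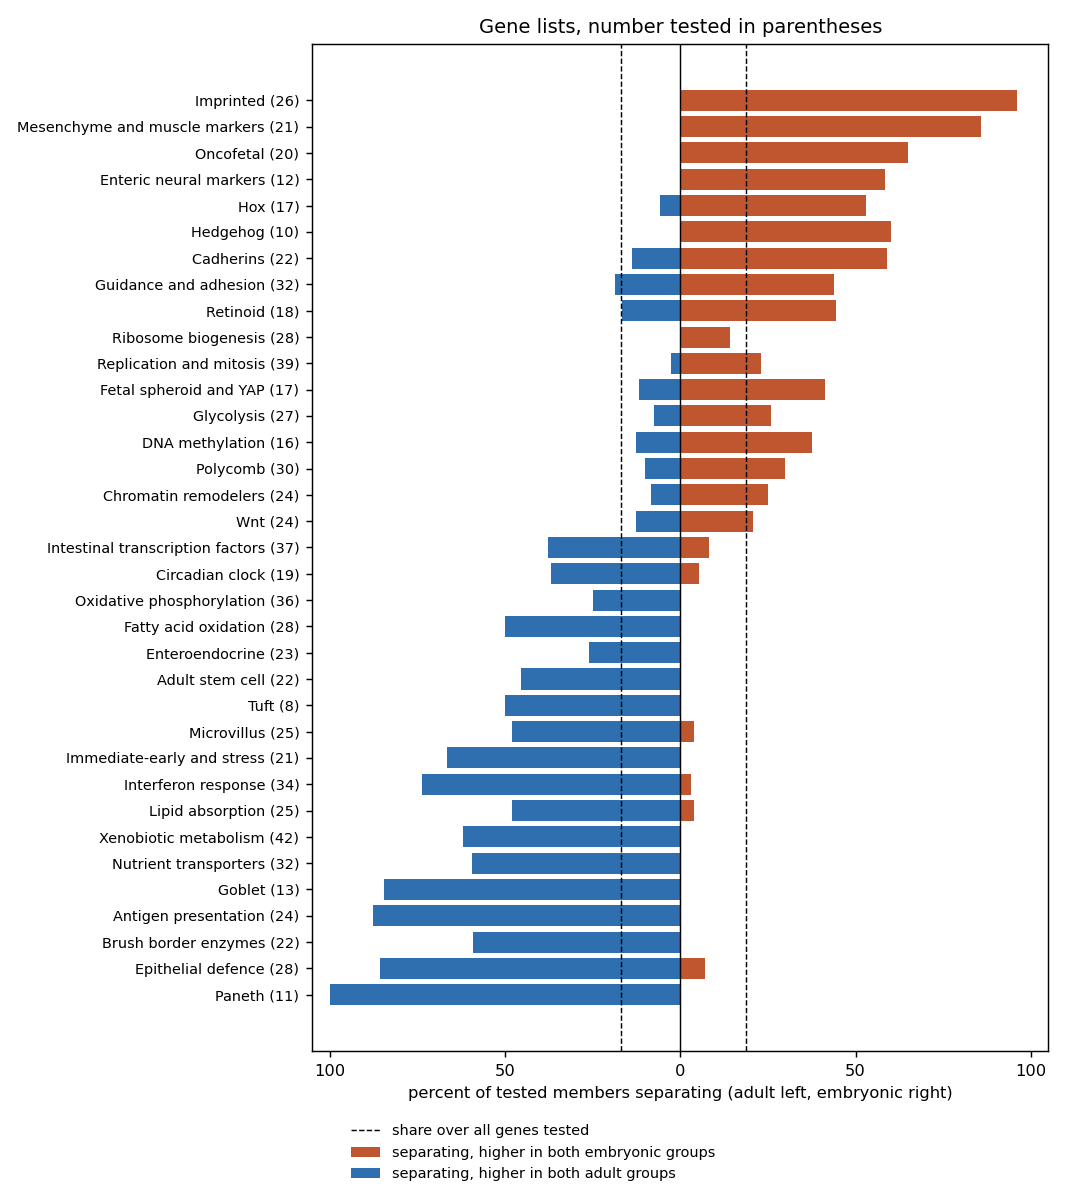
Bars give the percent of tested members of each gene list that separate the sides, towards the embryo to the right and towards the adult to the left, with the number tested in parentheses and lists ordered by median difference. Dashed lines mark the shares over all genes tested, 18.6% and 17.0%. Imprinted genes reach furthest to the right and Paneth genes furthest to the left.

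Closely related genes were also compared as pairs, which were chosen to look for members of 1 family that go opposite ways. The counts therefore describe these pairs only. Over all genes tested 42.1% were called higher in the embryo and 38.1% in the adult. Of 24 pairs compared, both genes were tested in 22. In 14 of these the genes were called in opposite directions, and in 6 each of them separated. Among these were Slc2a1 with Slc2a2, Slc2a3 with Slc2a5, Fabp5 with Fabp2, Cldn6 with Cldn15 and Cdh2 with Cdh17, in each case with the gene named first higher in the embryo. Cldn6, a tight junction claudin of embryonic epithelia, was measured at 229.99, 480.4 and 901 CPM in the embryo and 0.0634, 0.384 and 1.389 CPM in the adult, and Cldn15, a pore-forming claudin of the villus, at 2.69, 3.63 and 4.31 CPM in the embryo and 143, 259 and 573 CPM in the adult. Their differences were 10.19 ± 0.22 and -6.25 ± 0.15. N-cadherin (Cdh2) had 3.49, 39.0 and 83.1 CPM in the embryo and 1 adult read, while Cdh17, the intestinal cadherin, rose from 179, 416 and 649 CPM in the embryo to 747, 1660.4 and 3100.0 CPM in the adult. Of the fatty acid binding proteins, Fabp5 stood at 10.1, 12.1 and 18.3 CPM in the embryo and 1.61, 3.06 and 8.41 CPM in the adult and Fabp2 at 30.5, 81.7 and 131 CPM in the embryo and 168, 1953 and 13728 CPM in the adult.

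In 6 pairs both genes were called higher in the embryo, among them Dnmt3b with Dnmt3a and Igf2 with Igf1, and in 1, Hnf4a with Hnf4g, both were called higher in the adult. Ccnd1 and Ccnd2, the D cyclins, were called in opposite directions, and only Ccnd2 separated, at 668, 1017 and 1302 CPM in the embryo against 281, 476 and 596 CPM in the adult. Mycn separated towards the embryo (53.7, 79.3 and 111 CPM in the embryo against 1.83, 2.44 and 3.51 CPM in the adult), whereas Myc did not separate and had levels of 49.0 ± 17.3 CPM at E12.5, 198 ± 12.6 at E14.5, 369.8 ± 43.1 for ISC and 43.9 ± 6.74 for AE. The average calls of Myc (-0.37 ± 0.14, adjusted p = 0.0234) and Gata6 (-0.21 ± 0.08, adjusted p = 0.0354) were lost in 6 and 14 of the alternative settings tried. Gata4 was not called (0.14 ± 0.10, adjusted p = 0.203).

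**Figure D4:**
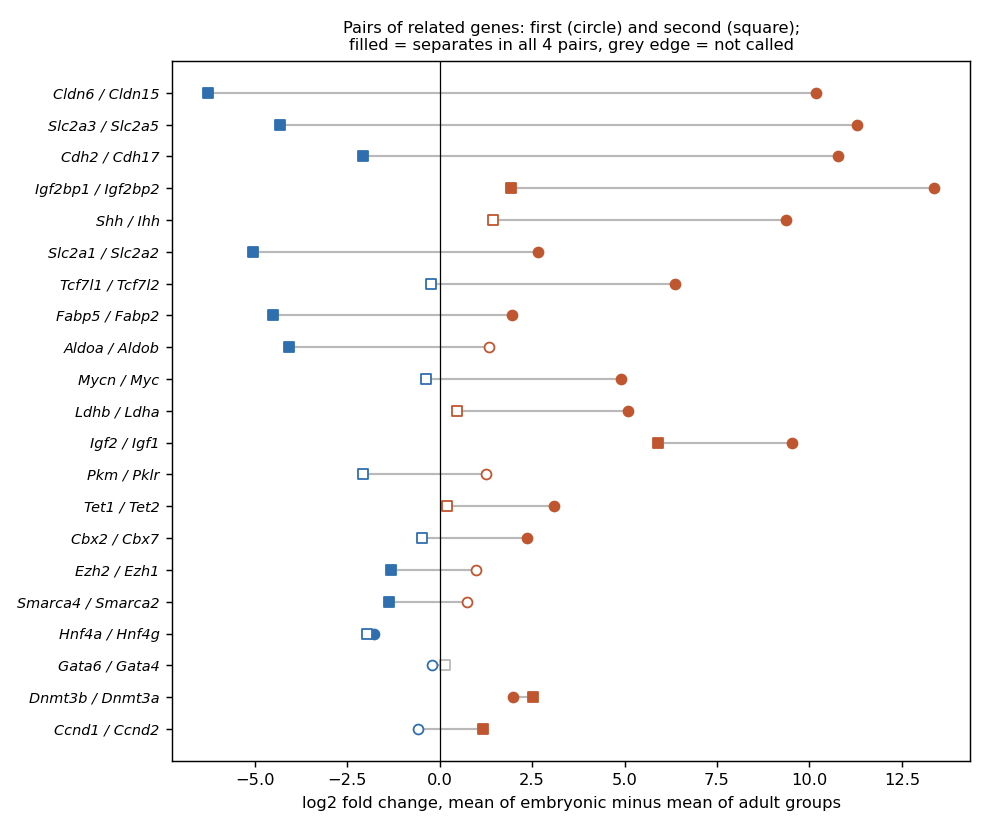
Each line joins the average log2 differences of 2 related genes among the pairs tested, the first as a circle and the second as a square, with orange for higher in the embryo and blue for higher in the adult. Filled symbols separate in all 4 pairs and a grey edge marks a gene that was not called. Fitted values of genes with few adult reads depend on the prior count. Among them are Slc2a3 and Cdh2, with 1 read or none in the adult groups, Igf1, with none in ISC, and Igf2bp1, with few in both.

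The pair of glucose transporters Slc2a1 and Slc2a2 was chosen for printing its promoters after the values were seen. Slc2a1 (GLUT1), a glucose carrier of many dividing cells, stood at 139, 202 and 266 CPM in the embryo and 23.5, 27.9 and 44.0 CPM in the adult (difference 2.66 ± 0.15, adjusted p = 6.24e-10). Slc2a2 (GLUT2), the carrier of absorptive cells, stood at 1.48, 2.33 and 4.24 CPM in the embryo, 8.02 ± 3.15 CPM in ISC and 778 ± 227 CPM in AE (difference -5.06 ± 0.21, adjusted p = 2.31e-11). Their promoters, at chr4:119108495-119108794 and chr3:28697653-28697952 (both plus strand), are given with the same window and capitals as above, ATTGG being CCAAT on the other strand.
Slc2a1: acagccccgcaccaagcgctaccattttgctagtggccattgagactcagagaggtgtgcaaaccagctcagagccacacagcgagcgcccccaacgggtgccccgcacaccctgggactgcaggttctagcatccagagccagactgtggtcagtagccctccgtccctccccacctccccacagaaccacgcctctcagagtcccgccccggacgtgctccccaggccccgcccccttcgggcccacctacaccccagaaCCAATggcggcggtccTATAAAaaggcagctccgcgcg
Slc2a2: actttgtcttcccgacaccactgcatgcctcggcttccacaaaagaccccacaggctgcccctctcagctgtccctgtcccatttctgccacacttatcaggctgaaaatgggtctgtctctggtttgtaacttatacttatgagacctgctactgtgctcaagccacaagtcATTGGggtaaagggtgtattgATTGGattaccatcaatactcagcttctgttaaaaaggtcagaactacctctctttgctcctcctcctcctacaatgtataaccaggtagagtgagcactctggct
The Slc2a1 window held 18 CG dinucleotides in 65.3% G and C, and the Slc2a2 window 2 in 48.0%.

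Promoter composition was then described for the larger sets. RefSeq gave exactly 1 window for 9608 of the genes tested (62.6%). The ratio of observed to expected CG dinucleotides, which is low in promoters without a CpG island, had a median of 0.744 over all of them, 0.647 among 1068 genes separating towards the embryo by at least 1 log2 unit and 0.414 among 872 separating as far towards the adult. It was under 0.4 for 19.4%, 24.5% and 48.9% of these genes. When all separating genes were taken, whatever the size of their differences, the shares were 17.4% for the embryo and 30.7% for the adult, so the embryonic share then lay below that of all genes and the adult share stayed above it. TATAAA occurred in 8.17% of all windows, 7.40% of those of the embryonic set and 13.6% of those of the adult set. CAAAGTC, the HNF4 core, occurred in 4.03%, 3.56% and 7.34%, and TTTATTG, the CDX core, in 2.74%, 2.25% and 3.90%. CCAAT was found in 39.1%, 36.4% and 37.3%, and CACGTG in 9.64%, 8.52% and 6.77%. Motifs were counted on both strands. The median GC content of the windows was 60.3%, 62.0% and 56.3%, and its part in the motif shares was not tested.

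**Figure D5:**
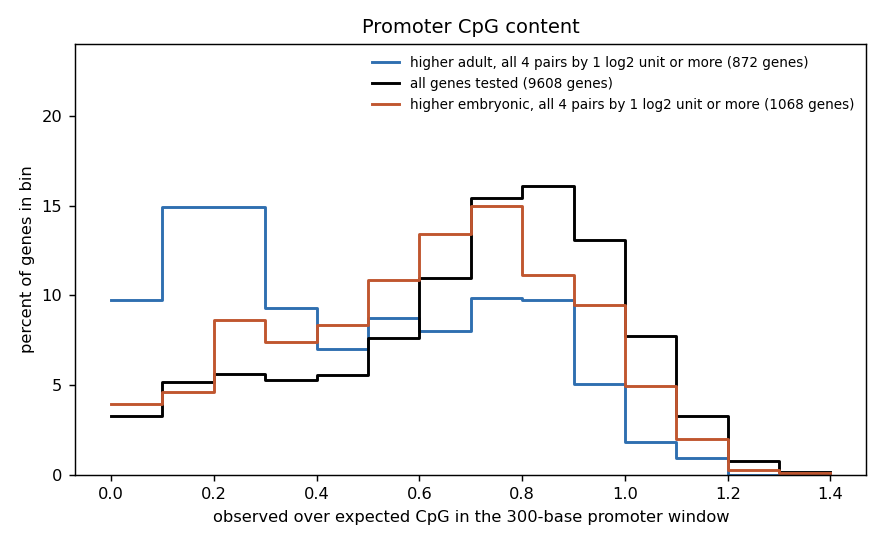
Percent of genes in each bin of the observed over expected CG dinucleotides in the 300-base promoter window, for all genes tested and for genes separating by at least 1 log2 unit towards the embryo or the adult. The adult set has a second peak below 0.4, where it holds 48.9% of its genes against 24.5% of the embryonic set and 19.4% of all genes, and the embryonic set is the highest of the 3 in the bins from 0.4 to 0.7.

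Separating genes also varied within each side. Over the 5471 of them, which were chosen for differing between the sides, the median size of the difference was 0.57 between E14.5 and E12.5 and 0.85 between AE and ISC. Over all genes tested 49.2% differed between the embryonic groups and 67.8% between the adult groups. Of the separating genes 2830 also differed between the embryonic groups, 3223 between the adult groups, 1697 in both and 1115 in neither. Of the 1833 that were higher in the embryo by at least 1 log2 unit, 1046 were higher in E12.5 than in E14.5 and 167 the reverse, and 518 were lower in AE than in ISC and 198 the reverse. Of the 1408 higher in the adult by as much, 613 were higher in E14.5 than in E12.5 and 79 the reverse, and 798 were higher in AE than in ISC and 196 the reverse. All 3 steps in the order E12.5, E14.5, ISC, AE passed the threshold in the same direction for 320 genes that fell and 389 that rose. The order of the embryonic groups in these counts rests on the titles.

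A small class changed between the sides and hardly within them, with at least 2 log2 units in each of the 4 pairs and less than 1 within either side. It held 379 genes (2.47%), 236 higher in the embryo (1.54%) and 143 in the adult (0.932%). By its definition the levels within a side are alike, and no test was made of it. H19, Efna5, Mpped2 and Rian were among its leaders in the embryo. Mpped2, a metallophosphoesterase, stood at 23.7, 34.6 and 44.8 CPM in the embryo, with 1 read in each adult group. AY761184, Gm1123, Ttc39b and L1cam were among its leaders in the adult. Gm1123 was measured at 0.355, 0.825 and 1.02 CPM in the embryo and 65.3, 108 and 197 CPM in the adult (difference -7.23 ± 0.20, adjusted p = 3.25e-13). Ttc39b, a tetratricopeptide protein, stood at 1.55, 2.74 and 3.65 CPM in the embryo and 133, 168 and 220.1 CPM in the adult, with the AE libraries above those of ISC. L1cam, an adhesion molecule known from neurons, stood at 2.31, 3.47 and 5.03 CPM in the embryo and 113, 131 and 213 CPM in the adult, and the ranges of ISC and AE overlapped.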

How the data were processed

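RNA of sorted cells was sequenced in 12 libraries, with 3 in each of 4 groups. The authors deposited whole-number read counts per gene for each library, not normalized. Tools in the submitters' processing notes are HTSeq 0.6.1p1 and STAR 2.3.1z13, with DESeq2 1.6.3, SAMtools 1.2 and bcl2fastq 1.8.4, on build mm9. Their settings, the gene annotation and the use of strand are not stated in the sources used here. Each file held 23366 genes and 5 closing rows, which stayed out of library sizes. Reads outside genes made up 33.4% to 58.1% of the total and ambiguous reads 0.531% to 1.00%. Multiply aligned reads were listed in E12.5 and ISC (3.06% to 5.96%) and stood at 0 in E14.5 and AE, so each side of the comparison held 1 group of each kind. That balances the average only. The pairs E12.5 against AE and E14.5 against ISC, which separation also requires, and the differences within each side crossed this split.

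Counts were fitted with edgeR 4.0.16 (filterByExpr, TMM normalization, quasi-likelihood test, Benjamini-Hochberg adjustment over all genes tested) under R 4.3.3, with the 4 groups in one model and no covariate. All adjusted p-values in the text are from this fit unless another tool is named. DESeq2 1.42.0, limma 3.58.1 (voom), other scalings, no filter, a replicate block and leaving out each library were tried. Normalized CPM use TMM library sizes. An error after a difference is an approximate standard error, the size of the difference divided by the square root of its quasi-likelihood F. Fitted differences include a prior count of 0.125. Where 1 side has few reads or none, this error does not measure the precision of the difference. A group's 3 libraries set its floor, where 3 counts over a group equalled 0.0371 CPM at E12.5, 0.0263 at E14.5, 0.0525 for ISC and 0.0606 for AE, which covers counting error only. Depth is given per group in the report. A fold against a group with no read was taken against this floor, and where a group had 1 to 3 reads no fold is given. In simulated counts for 14890 genes the average contrast recovered 61.9%, 97.0% and 100% of genes changed 1.5-fold, 2-fold and 4-fold, and the test in all 4 pairs 3.17%, 65.2% and 98.5%. The changed genes numbered 63, 66 and 66. All genes were given the same spread, and the groups the same profile apart from these changes, so the rates need not hold for the measured data.

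Genes named are the 10 in each direction with the largest smallest difference and at least 20 CPM in every library of the higher side, up to 3 members of each list in each direction by the same measure with at least 5 CPM, fixed controls, the genes of the related pairs, the 5 leaders in each direction of the class with little change within sides, and members that go against their list. Of some lists, further members were named after their values were seen. Some genes that meet these rules are not reported here. Members and lists were chosen with earlier results of these data known. Replicates were separate pools or guts per the labels, and no 2 libraries agreed within sampling noise. AE replicate 1 stood apart most. In multiples of sampling noise, squared deviations were 138 and 125 between it and AE replicates 2 and 3, and 26.6 between AE replicates 2 and 3. The genome of the files' build was not used. Shared sequence was counted in GENCODE M21 transcripts with Python 3.11.15 and pandas 2.3.3, and promoters and microRNAs come from RefSeq tables of GRCm38.p6.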

Additional observations from a re-analysis of the deposited data

How the results depend on the processing

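The number of genes called in the average contrast was 12051 to 12624 when each library was left out in turn, 12433 with DESeq2, 12348 with limma-voom, 12324 with DESeq2 size factors, 12424 with upper-quartile factors and 13135 without a filter on low counts. It was 10417 with E12.5 and ISC alone, 11483 with E14.5 and AE alone, and 9019 when the libraries were fitted as 2 groups of 6, where 5470 of the 5471 separating genes were called. The number of separating genes was 5006 to 5727 with a library left out (2624 to 3019 towards the embryo and 2380 to 2735 towards the adult), and 5654 with DESeq2, 5534 with limma-voom, 5517 with DESeq2 size factors, 5459 with upper-quartile factors and 5515 without the filter. In none of these settings did a gene of the 5471 separate in the opposite direction. Genes separating by at least 1 log2 unit numbered 3157 to 3282 with a library left out, and genes with little change within sides 369 to 406. The median difference of all genes tested moved from 0.06 to 0.22 under upper-quartile factors and to 0.19 without the filter. The shares of promoters with a CpG ratio under 0.4 moved to 17.4% for the embryo and 30.7% for the adult when all separating genes were taken, by construction a set with smaller differences.

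With the replicate number as a block 12190 genes were called in the average contrast and 5337 separated, 5289 of them shared with the fit without the block and in the same direction. The deviations of same-numbered libraries from their group means correlated between -0.081 and 0.080, so the numbers give no pairing. Gata6 lost its average call in 14 settings, Myc in 6 and Tcf7l2 under upper-quartile factors. Upper-quartile factors also called Gata4 (adjusted p = 0.0122, over all settings 0.0122 to 0.393), as did leaving out AE replicate 3 (adjusted p = 0.0478). Depth limits genes of a few reads, for which absence in a group means fewer than 3 counts over its libraries, and 3 libraries per group limit the precision of each group's spread.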

Other observations

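Some groups of genes outside the comparisons above were measured as well. Hormones of enteroendocrine cells were low in the embryo, and the 23 genes of this list summed to 51.9 to 103 CPM at E12.5, 127.6 to 232 CPM at E14.5, 139 to 217 CPM for ISC and 1839 to 2712 CPM for AE. Its separating members Chga, Cck, Gip, Nts, Tac1 and Tph1 make peptide hormones, granule proteins or serotonin, whereas the transcription factors Neurog3 (0.67) and Nkx2-2 (0.93), which specify these cells, were called higher in the embryo without separating, and Pax4, Pax6, Isl1 and Fev were not called. Of 15 markers of epithelial identity 8 separated towards the adult, among them the keratins Krt8 (90.3, 117 and 146 CPM in the embryo and 367, 751 and 1464 CPM in the adult, with 29.7% of its 50-base stretches shared) and Krt19 (difference -2.21 ± 0.14). Tjp1, a tight junction scaffold, separated towards the embryo but not in 7 of the 18 alternative settings.

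Markers of neighbouring organs and of blood were few in number. Of 6 tested genes of pancreas, liver and stomach 3 separated towards the embryo (5 or 6 in 4 alternative settings), with the pancreatic enzyme gene Cpa1 at 7.42, 10.5 and 23.1 CPM in the embryo and 3 reads in ISC and 2 in AE, and the transport protein Ttr at 46.7, 52.5 and 55.3 CPM in the embryo (difference 1.96 ± 0.14). The list summed to 68.5 to 92.1 CPM in E12.5, 105.3 to 227 CPM in E14.5 and 20.8 to 40.7 CPM over the adult libraries. Of 3 tested red cell genes the embryonic globins Hbb-y and Hba-x separated towards the embryo, and the adult globins Hba-a1, Hba-a2, Hbb-b1 and Hbb-b2 had no read in any library. Sequence shared among these adult globins was not counted here, so their 0 reads cannot be taken as absence of their RNA. Of 15 tested immune genes 5 separated towards the adult, among them Gzma and Gzmb of cytotoxic lymphocytes, and 1 towards the embryo, Lck (2 without AE replicate 1). Of 7 tested endothelial genes 1 separated towards the embryo, Cdh5, and 2 or 3 in 13 alternative settings, and their sums lay between 4.94 and 12.8 CPM in all libraries.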
